A study of Homo sapiens with 12 samples.

Results

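NF-kB is a family of transcription factors, and the 38 genes described here are its subunits, its inhibitors and a set of the inflammatory genes it is known to induce. They were chosen by name from a table of transcript levels, and all 38 were found among its 19156 distinct gene symbols, which stand on 20979 lines. The table holds 12 polyA RNA-seq libraries from 3 established human kidney lines, each with 1 library per reagent. A704 and CAKI-1 are labelled as cancer and HK2 as normal; HK2 is an immortalised tubule line. Each line was transfected with PTPN14-1 siRNA, PTPN14-2 siRNA, LATS siRNA or a control siRNA at 25 nM in a lipid reagent. All 12 libraries were made from RNA taken at 48 h, after the cells had been lifted with trypsin. PTPN14 is a tyrosine phosphatase, and LATS1 and LATS2 are kinases, of the growth-restraining Hippo pathway; the labels do not say which LATS gene the reagent was aimed at. PTPN14-1 and PTPN14-2 are named as in the sample titles, since the descriptions number them the other way round. The labels name 3 growth media for the 3 lines, so line and medium cannot be told apart. With 1 library per line and reagent, the line and siRNA comparisons take their spread from differences in siRNA effect between lines, together with noise. Whether each library had its own culture is not in the labels, and that noise may then be technical.

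In resting cells the NF-kB subunits (RELA, RELB, REL and the products of NFKB1 and NFKB2) are held in the cytoplasm by IkB proteins such as those of NFKBIA, NFKBIB and NFKBIE. Signals from tumour necrosis factor, interleukin-1 and Toll-like receptors lead to degradation of the IkB proteins, and the freed dimers enter the nucleus and bind kappaB sites in DNA. Their targets include chemokines, cytokines, survival genes and the inhibitors themselves, which gives the pathway its negative feedback. In kidney tubule cells the pathway is known for chemokine release during injury and inflammation.

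The targets were lower in every line. PTPN14 stood at 21.4 to 28.7% of the control FPKM with PTPN14-1 and at 31.2 to 37.5% with PTPN14-2, and LATS1 at 22.5 to 30.7% with LATS siRNA, which left LATS2 at 98.2 to 122% of control. Depth recovered from the lowest values of single-exon genes was 16.9 to 23.2 M reads per library, at which 1 read in a 2-kb gene is worth 0.0216 to 0.0296 FPKM. The kidney markers PAX8, KRT8 and KRT18 were at FPKM 19.4 or more in every library, while CDH1 and PAX2 were above 1 in A704 alone and EPCAM in HK2 alone. Of 12 immune cell markers only CD68 was above FPKM 1 in every library, at 134 to 198 in A704, 17.7 to 25.2 in CAKI-1 and 31.5 to 43.4 in HK2. ITGAM, also an immune cell marker, was above 1 in A704 alone, at 1.42 to 2.02, and at most 0.27 elsewhere. The leukocyte gene PTPRC was at 0.04 or less and the T cell gene CD3E and B cell gene MS4A1 were listed at 0 throughout. The fibroblast genes LUM and DCN were at 0.13 or less in A704 and CAKI-1, against 46.6 to 74.4 for LUM and 5.67 to 8.2 for DCN in HK2. Other fibroblast genes did not follow them. PDGFRA was at 0.01 or less in HK2, and PDGFRB at 0.03 or less there against 0.62 to 1.72 in CAKI-1. COL1A1 was at 0.93 to 1.49 in HK2 and 0.67 to 1.43 in A704.

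The promoters of several chemokine members are close copies, and they are shown because the levels of these genes differ between lines and siRNAs. RefSeq promoters (GRCh38.p14, 300 bases around the start site, most of them before it) were matched for 30 of the 38 members. The NF-kB motif known as the kappaB consensus was found on either strand in 15 of these 30 (50%), against 2075 of all 35116 promoters of that length (5.91%). The members were chosen as NF-kB genes and include close copies, so a higher share was to be found and is a description only. For each member 1 promoter was taken, while the background holds every promoter. The stretches below run from 100 bases before the start site to 10 bases after it, 5′ to 3′ on the gene's strand, with matches to the consensus in capitals; where matches on both strands overlap, their union is in capitals.
CXCL1 (chr4:73869293-73869402, plus strand): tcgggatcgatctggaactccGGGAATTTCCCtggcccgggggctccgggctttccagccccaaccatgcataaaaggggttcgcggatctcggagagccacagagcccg
CXCL2 (chr4:74099186-74099295, minus strand): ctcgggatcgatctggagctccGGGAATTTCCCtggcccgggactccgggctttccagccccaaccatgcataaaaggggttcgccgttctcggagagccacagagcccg
CXCL3 (chr4:74038680-74038789, minus strand): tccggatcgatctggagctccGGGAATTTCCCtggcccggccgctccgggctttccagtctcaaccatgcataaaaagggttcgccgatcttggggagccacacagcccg
CXCL5 (chr4:73998668-73998777, minus strand): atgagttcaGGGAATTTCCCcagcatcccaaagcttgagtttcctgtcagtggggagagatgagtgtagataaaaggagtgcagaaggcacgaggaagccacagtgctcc
CXCL6 (chr4:73836578-73836687, plus strand): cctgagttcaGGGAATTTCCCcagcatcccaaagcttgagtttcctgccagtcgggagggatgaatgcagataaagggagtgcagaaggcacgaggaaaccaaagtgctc
IL6 (chr7:22727100-22727209, plus strand): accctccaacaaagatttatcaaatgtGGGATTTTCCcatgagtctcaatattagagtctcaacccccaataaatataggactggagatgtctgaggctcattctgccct
TNFAIP3 (chr6:137867159-137867268, plus strand): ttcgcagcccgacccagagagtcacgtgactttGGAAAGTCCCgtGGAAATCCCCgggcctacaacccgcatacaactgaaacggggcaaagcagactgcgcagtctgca
NFKBIA (chr14:35404740-35404849, minus strand): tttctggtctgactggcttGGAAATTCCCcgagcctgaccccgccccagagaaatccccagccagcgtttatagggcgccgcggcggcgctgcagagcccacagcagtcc
CSF2 (chr5:132073689-132073798, plus strand): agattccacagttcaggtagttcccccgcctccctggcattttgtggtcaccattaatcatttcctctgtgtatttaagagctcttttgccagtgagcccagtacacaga
The 5 CXCL stretches carry the same capitals, and the bases around them fall into a CXCL1, CXCL2 and CXCL3 group and a CXCL5 and CXCL6 group. Over 300 bases the CXCL1 promoter was 82.5% identical to that of CXCL3 and 71.9% identical to that of CXCL2, and the CXCL5 promoter was 83.1% identical to that of CXCL6; across the groups identity was 52.8 to 55.7%. TNFAIP3 carries separate matches, IL6 and NFKBIA carry a single one here, and CSF2 none in this window. A match is a run of letters and says nothing of binding in these cells. The transcripts of CXCL1, CXCL2 and CXCL3 share 0.573 to 5.73% of their 50-base windows, so some of their reads could be assigned to the wrong copy.

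Levels are given as FPKM, which is scaled to gene length, so that genes can be set beside each other. Tests used log2(FPKM + 1) on 12276 genes (3 or more libraries above FPKM 1), with Benjamini-Hochberg adjustment over all of them, and a call means an adjusted p under 0.05. Fold changes on this scale understate those of low genes. All 38 members were tested and 26 of them were above FPKM 1 in all 12 libraries. CXCL6, CXCL10 and IL1B passed the filter through 1 line alone, and CXCL1, CXCL5, CCL2, CCL5, IL1A, PTGS2 and CFB through 2 lines, so that they had to differ between lines. CFB stands on 6 lines of the table and CCL5 on 2, and the line with the highest mean FPKM was used. In these bulk samples fewer cells that express a gene and less RNA per cell cannot be told apart.

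**Figure D1:**
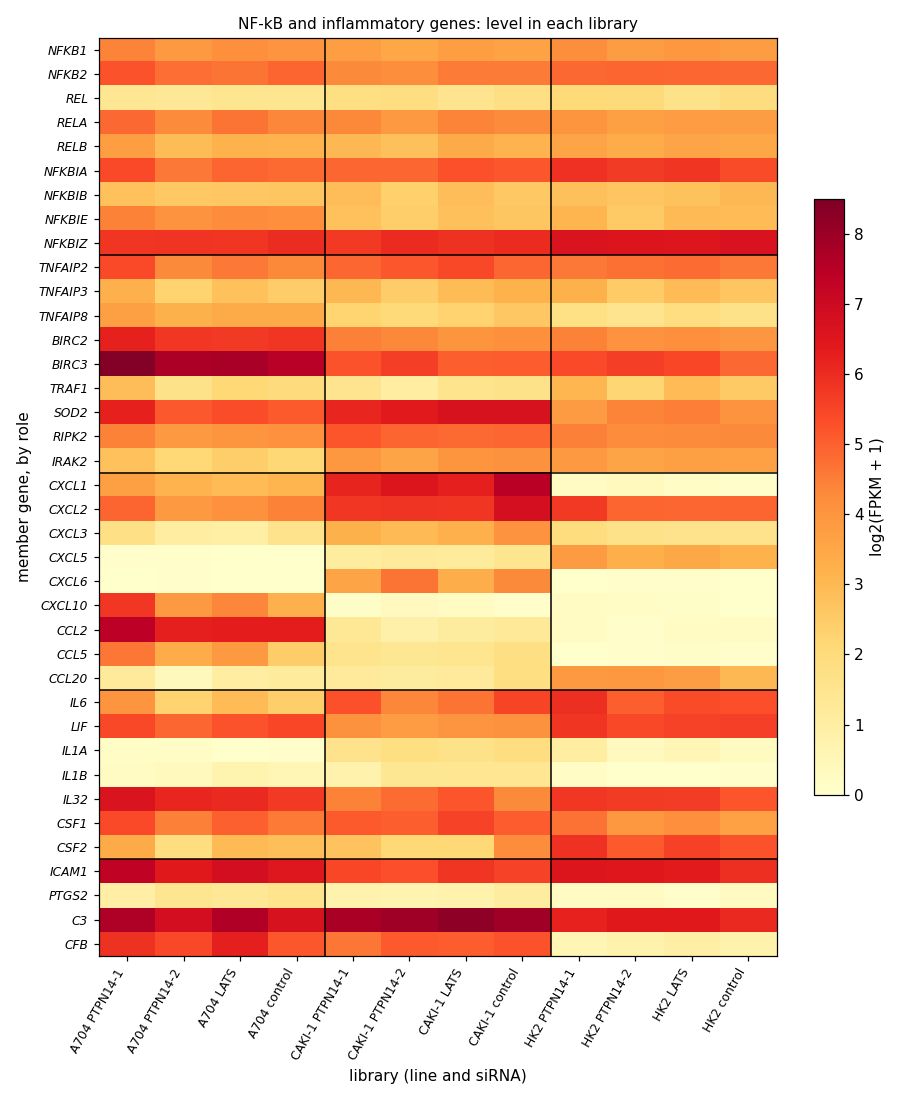
Levels of the 38 members as log2(FPKM + 1), in colour, with genes in rows grouped by role and the 12 libraries in columns grouped by line. Chemokine rows differ in colour between the 3 lines, with CCL2 and CXCL10 high in A704, CXCL1 and CXCL6 in CAKI-1 and CXCL5 and CCL20 in HK2.

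Levels of the members were compared between lines first. Between A704 and HK2, 31 members were called (18 higher and 13 lower in A704), where 84.6% of all genes were. Between CAKI-1 and HK2 it was 29 (16 higher, 13 lower), against 81.7% of all genes, and between A704 and CAKI-1 also 29 (16 higher, 13 lower), against 81.1%. With a log2 difference of at least 1 as well, 16 members passed in A704 against HK2 (background 32.6%), 15 in CAKI-1 against HK2 (25.8%) and 19 in A704 against CAKI-1 (24.6%). The 4 libraries of each line did not overlap for 22 members in A704 against HK2 (76.1% of all genes), 27 in CAKI-1 against HK2 (69.8%) and 24 in A704 against CAKI-1 (68.8%). The shares of members called at any size (76.3 to 81.6%) were thus a little below those of all genes. The shares with a log2 difference of at least 1 (42.1% in A704 against HK2, 39.5% in CAKI-1 against HK2 and 50% in A704 against CAKI-1) were above those of all genes, but they include members that passed the filter only through the lines where they were high. The share without overlap was below that of all genes in A704 against HK2 (57.9%). What follows is a description of which members were high where. Each line's 4 libraries received different siRNAs, which add to the SD given over them.

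Each line had its own highest chemokines, and 6 of the 9 passed the filter through 1 or 2 lines alone. CCL2, CCL5 and CXCL10, which draw monocytes and T cells, were highest in A704. CXCL1, CXCL2, CXCL3 and CXCL6, which draw neutrophils, were highest in CAKI-1. CXCL5 of the same group, and CCL20, which draws lymphocytes and dendritic cells through CCR6, were highest in HK2. CXCL1 (chromosome 4, 73869393 to 73871242, plus strand, GENCODE 29 on GRCh38) stood in A704 at 11.9 with PTPN14-1, 7.89 with PTPN14-2, 6.6 with LATS and 7.54 with control siRNA FPKM. Its level in CAKI-1 was 70.2 with PTPN14-1, 92.6 with PTPN14-2, 75.4 with LATS and 174 with control siRNA. In HK2 it was 0.16 with PTPN14-1, 0.26 with PTPN14-2, 0.1 with LATS and 0.05 with control siRNA, and the 3 lines did not overlap. The log2 difference was 3.03 (SE 0.24, limma adjusted p = 5.65e-07) for A704 minus HK2 and 6.41 (SE 0.24, limma adjusted p = 1.6e-09) for CAKI-1 minus HK2. CXCL1 passed the filter through A704 and CAKI-1 alone, so that it had to differ from HK2. CXCL2 in A704 was 29.4 with PTPN14-1, 13.7 with PTPN14-2, 16.5 with LATS and 20.6 with control siRNA. Its CAKI-1 libraries held 52.9 with PTPN14-1, 55.5 with PTPN14-2, 54.9 with LATS and 109 with control siRNA. The HK2 libraries held 52 with PTPN14-1, 29.7 with PTPN14-2, 28.8 with LATS and 29.6 with control siRNA, so that CAKI-1 lay above both other lines, narrowly above the HK2 library with PTPN14-1. CXCL3, the third close copy, was 2.26 with PTPN14-1, 1.03 with PTPN14-2, 0.92 with LATS and 1.95 with control siRNA in A704. In CAKI-1 it was 8.16 with PTPN14-1, 6.9 with PTPN14-2, 8.42 with LATS and 15.8 with control siRNA, and all of these were above every other library. HK2 held 2.79 with PTPN14-1, 2.05 with PTPN14-2, 1.96 with LATS and 1.99 with control siRNA FPKM of CXCL3.

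CXCL6 was a CAKI-1 transcript, at 10.8 with PTPN14-1, 24.4 with PTPN14-2, 8.98 with LATS and 18.5 with control siRNA, while it was 0.03 FPKM or less, about 1 read, in all 8 other libraries. CXCL5 was 0.06 FPKM or less in every A704 library. Its CAKI-1 level was 1.12 with PTPN14-1, 1.32 with PTPN14-2, 1.28 with LATS and 1.76 with control siRNA. In HK2 it was 13.2 with PTPN14-1, 8.56 with PTPN14-2, 10.2 with LATS and 8.05 with control siRNA. The log2 difference of A704 minus HK2 was -3.39 (SE 0.13, limma adjusted p = 2.38e-11). CXCL5 passed the filter through CAKI-1 and HK2 alone, so that it had to differ from A704. CXCL5 and CXCL6 were thus highest in different lines. CCL20 was 1.34 with PTPN14-1, 0.31 with PTPN14-2, 1 with LATS and 1.27 with control siRNA in A704. CAKI-1 held 1.29 with PTPN14-1, 1.14 with PTPN14-2, 1.32 with LATS and 2.54 with control siRNA, and HK2 held 13.8 with PTPN14-1, 14.4 with PTPN14-2, 12.6 with LATS and 7.01 with control siRNA. HK2 lay above both without overlap, and A704 and CAKI-1 overlapped (log2 difference -0.38 (SE 0.25, limma adjusted p = 0.186)).

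CCL2, the monocyte chemokine, was 171 with PTPN14-1, 75.4 with PTPN14-2, 77.3 with LATS and 76.6 with control siRNA in A704. It was 1.52 with PTPN14-1, 0.81 with PTPN14-2, 1.18 with LATS and 1.36 with control siRNA in CAKI-1. In HK2 it was 0.19 FPKM or less in every library. A704 minus CAKI-1 came to 5.43 (SE 0.16, limma adjusted p = 1.8e-11), the largest difference between those lines among the members. CXCL10, known as an interferon-induced T cell chemokine, was 53.2 with PTPN14-1, 13.6 with PTPN14-2, 19.7 with LATS and 8.37 with control siRNA in A704 and at most 0.24 FPKM elsewhere. CCL5, another T cell and monocyte chemokine, was 23.6 with PTPN14-1, 9.13 with PTPN14-2, 13.7 with LATS and 4.49 with control siRNA in A704. CAKI-1 held 1.93 with PTPN14-1, 1.58 with PTPN14-2, 1.76 with LATS and 2.43 with control siRNA of CCL5, and HK2 at most 0.08. The 12 interferon response genes of a list set beside the members were also highest in A704, where their summed FPKM was 859 to 2062, against 253 to 374 in CAKI-1 and 111 to 169 in HK2; their part in the A704 chemokine levels was not tested.

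Among the cytokines, IL6 was lowest in A704 and CSF2 highest in HK2. IL6, which signals through gp130, was 15.4 with PTPN14-1, 3.79 with PTPN14-2, 6.61 with LATS and 4.29 with control siRNA in A704. CAKI-1 held 37 with PTPN14-1, 19.6 with PTPN14-2, 24.6 with LATS and 43.7 with control siRNA, and HK2 held 60.4 with PTPN14-1, 31.4 with PTPN14-2, 39.7 with LATS and 38.2 with control siRNA. All A704 libraries lay below all others, with a log2 difference of -2.49 (SE 0.23, limma adjusted p = 1.78e-06) from HK2, while CAKI-1 and HK2 overlapped. CSF2 (GM-CSF, a growth factor of granulocytes and macrophages) was 9.31 with PTPN14-1, 2.62 with PTPN14-2, 6.87 with LATS and 6.16 with control siRNA in A704. CAKI-1 held 5.51 with PTPN14-1, 3.31 with PTPN14-2, 3.32 with LATS and 17.8 with control siRNA of CSF2. In HK2 it was 57.8 with PTPN14-1, 33.2 with PTPN14-2, 45.8 with LATS and 36.7 with control siRNA, and HK2 lay above both other lines in every library. CSF1, the macrophage growth factor, was 40.6 with PTPN14-1, 20.9 with PTPN14-2, 30.7 with LATS and 22.8 with control siRNA in A704. CAKI-1 held 32.9 with PTPN14-1, 31.8 with PTPN14-2, 45.2 with LATS and 32.4 with control siRNA, and HK2 25 with PTPN14-1, 14.2 with PTPN14-2, 17 with LATS and 11.7 with control siRNA. HK2 lay below CAKI-1 without overlap and overlapped A704.

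LIF, a relative of IL6 in the same receptor family, was 42.1 with PTPN14-1, 28.9 with PTPN14-2, 36.2 with LATS and 42.9 with control siRNA in A704. It was 16.2 with PTPN14-1, 12.9 with PTPN14-2, 15.5 with LATS and 16.1 with control siRNA in CAKI-1. HK2 held 55 with PTPN14-1, 42.6 with PTPN14-2, 45.1 with LATS and 47 with control siRNA. CAKI-1 had the lowest LIF in every library, and CAKI-1 minus HK2 came to -1.58 (SE 0.07, limma adjusted p = 2.47e-10). IL32, an inflammatory cytokine of lymphoid and epithelial cells, was 95.1 with PTPN14-1, 69.4 with PTPN14-2, 65.8 with LATS and 52.2 with control siRNA in A704. CAKI-1 held 20.7 with PTPN14-1, 26.8 with PTPN14-2, 35.4 with LATS and 18.6 with control siRNA, and HK2 held 53.8 with PTPN14-1, 50.6 with PTPN14-2, 49.8 with LATS and 35.8 with control siRNA. CAKI-1 lay below both other lines without overlap. The interleukin-1 genes were low. IL1A was 0.12 FPKM or less in A704 and 1.99 with PTPN14-1, 2.48 with PTPN14-2, 2.02 with LATS and 2.57 with control siRNA in CAKI-1. HK2 held 1.05 with PTPN14-1, 0.25 with PTPN14-2, 0.47 with LATS and 0.22 with control siRNA of IL1A. IL1B was 0.17 with PTPN14-1, 0.26 with PTPN14-2, 0.61 with LATS and 0.5 with control siRNA in A704. CAKI-1 held 0.73 with PTPN14-1, 1.6 with PTPN14-2, 1.66 with LATS and 1.66 with control siRNA of IL1B, and HK2 at most 0.14. Both were highest in CAKI-1.

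The survival genes were led by BIRC3, which encodes a ubiquitin ligase of tumour necrosis factor signalling. BIRC3 was 341 with PTPN14-1, 211 with PTPN14-2, 222 with LATS and 179 with control siRNA in A704. CAKI-1 held 36.5 with PTPN14-1, 48.1 with PTPN14-2, 31.6 with LATS and 32.8 with control siRNA, and HK2 held 41.1 with PTPN14-1, 48.4 with PTPN14-2, 43.4 with LATS and 28 with control siRNA. A704 stood at 2.52 (SE 0.15, limma adjusted p = 5.74e-09) above HK2 on the log2 scale, without overlap, and the other lines overlapped. BIRC2, its neighbour on chromosome 11 (102347211 to 102378670, with BIRC3 at 102317450 to 102339403), was 74.1 with PTPN14-1, 53.7 with PTPN14-2, 52.6 with LATS and 54.3 with control siRNA in A704. It was 21.1 with PTPN14-1, 19.1 with PTPN14-2, 15.2 with LATS and 17.1 with control siRNA in CAKI-1 and 20.6 with PTPN14-1, 15.7 with PTPN14-2, 16.9 with LATS and 14.6 with control siRNA in HK2. TNFAIP8, another survival gene, was 11.9 with PTPN14-1, 8.19 with PTPN14-2, 9.51 with LATS and 9.55 with control siRNA in A704. CAKI-1 held 3.68 with PTPN14-1, 3.08 with PTPN14-2, 3.81 with LATS and 5.11 with control siRNA, and HK2 held 2.31 with PTPN14-1, 1.83 with PTPN14-2, 2.59 with LATS and 2.12 with control siRNA. All 3 of these genes were highest in A704 in every library.

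SOD2, the mitochondrial manganese superoxide dismutase, was highest in CAKI-1. Its A704 level was 73.7 with PTPN14-1, 34.2 with PTPN14-2, 39.3 with LATS and 32.8 with control siRNA. In CAKI-1 it was 69.4 with PTPN14-1, 82.5 with PTPN14-2, 103 with LATS and 103 with control siRNA, and in HK2 13.2 with PTPN14-1, 20 with PTPN14-2, 21.8 with LATS and 15.9 with control siRNA. The 1 A704 library with PTPN14-1 reached into the CAKI-1 range, and HK2 lay below all. IRAK2, a kinase of interleukin-1 and Toll-like receptor signalling, was 5.86 with PTPN14-1, 3.27 with PTPN14-2, 4.26 with LATS and 3.4 with control siRNA in A704. It was 14.2 with PTPN14-1, 10.5 with PTPN14-2, 14.9 with LATS and 16 with control siRNA in CAKI-1 and 13.8 with PTPN14-1, 11 with PTPN14-2, 12.1 with LATS and 11.6 with control siRNA in HK2. RIPK2, the kinase of NOD receptors, was 20.5 with PTPN14-1, 13.9 with PTPN14-2, 15.1 with LATS and 16.5 with control siRNA in A704. CAKI-1 held 35.9 with PTPN14-1, 29.5 with PTPN14-2, 27.2 with LATS and 29.1 with control siRNA of RIPK2, and HK2 held 21.1 with PTPN14-1, 17.7 with PTPN14-2, 18.4 with LATS and 18.6 with control siRNA. IRAK2 was lowest in A704 and RIPK2 highest in CAKI-1, in every library. TRAF1, a signalling adaptor, was 6.38 with PTPN14-1, 2.07 with PTPN14-2, 3.27 with LATS and 2.81 with control siRNA in A704. It was 1.86 with PTPN14-1, 1.06 with PTPN14-2, 1.92 with LATS and 2.07 with control siRNA in CAKI-1 and 7.43 with PTPN14-1, 3.61 with PTPN14-2, 6.61 with LATS and 4.84 with control siRNA in HK2, where A704 overlapped HK2 and touched CAKI-1 at 2.07.

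TNFAIP3 encodes a ubiquitin-editing enzyme that ends NF-kB signalling, and its level did not pass the test between any lines (limma adjusted p = 0.245, 0.784 and 0.157). TNFAIP3 was 8.34 with PTPN14-1, 3.89 with PTPN14-2, 5.88 with LATS and 4.6 with control siRNA in A704. CAKI-1 held 6.94 with PTPN14-1, 4.51 with PTPN14-2, 6.47 with LATS and 7.91 with control siRNA, and HK2 held 8.31 with PTPN14-1, 4.73 with PTPN14-2, 6.73 with LATS and 5.4 with control siRNA. The A704 libraries alone spanned the range of all 12. TNFAIP2, a gene induced by tumour necrosis factor, was 40.8 with PTPN14-1, 18.8 with PTPN14-2, 23.3 with LATS and 19 with control siRNA in A704. It was 28.9 with PTPN14-1, 34.8 with PTPN14-2, 42 with LATS and 28.6 with control siRNA in CAKI-1 and 23 with PTPN14-1, 25.6 with PTPN14-2, 26.8 with LATS and 23.5 with control siRNA in HK2. It did not pass between any lines either.

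The NF-kB subunits were expressed in all 3 lines. RELA, the main activating subunit, averaged 22.7 ± 4.59 in A704, 17.9 ± 2.8 in CAKI-1 and 13.2 ± 1.28 FPKM in HK2 (SD, n = 4 each). In A704 it was 28.3 with PTPN14-1, 18.3 with PTPN14-2, 24.6 with LATS and 19.7 with control siRNA. CAKI-1 held 19.2 with PTPN14-1, 13.8 with PTPN14-2, 20.2 with LATS and 18.3 with control siRNA of RELA and HK2 held 15 with PTPN14-1, 12.1 with PTPN14-2, 12.9 with LATS and 12.6 with control siRNA. A704 was at 0.73 (SE 0.08, limma adjusted p = 2.06e-06) above HK2 on the log2 scale. NFKB1, which encodes the precursor of a DNA-binding subunit, was 20.2 with PTPN14-1, 13.5 with PTPN14-2, 16.8 with LATS and 15.2 with control siRNA in A704. It was 12.2 with PTPN14-1, 10.3 with PTPN14-2, 12.3 with LATS and 11 with control siRNA in CAKI-1 and 17.2 with PTPN14-1, 12.6 with PTPN14-2, 14.3 with LATS and 12.5 with control siRNA in HK2. CAKI-1 lay below both other lines in every library. NFKB2, which encodes the corresponding subunit of the non-canonical branch, was 36.9 with PTPN14-1, 26.2 with PTPN14-2, 24.6 with LATS and 29.4 with control siRNA in A704. It was 18.8 with PTPN14-1, 17.6 with PTPN14-2, 22.4 with LATS and 21.9 with control siRNA in CAKI-1 and 28.2 with PTPN14-1, 29.8 with PTPN14-2, 28.9 with LATS and 27.9 with control siRNA in HK2, where again CAKI-1 was lowest. RELB, the partner of the NFKB2 product, was 12.2 with PTPN14-1, 6.52 with PTPN14-2, 7.99 with LATS and 7.83 with control siRNA in A704. CAKI-1 held 7.07 with PTPN14-1, 6.01 with PTPN14-2, 9.34 with LATS and 7.77 with control siRNA, and HK2 held 10.6 with PTPN14-1, 9.07 with PTPN14-2, 10.6 with LATS and 10.4 with control siRNA. RELB passed between CAKI-1 and HK2 alone. REL, a subunit best known from lymphoid cells, was 1.63 with PTPN14-1, 1.53 with PTPN14-2, 1.79 with LATS and 1.71 with control siRNA in A704. It was 2.5 with PTPN14-1, 2.61 with PTPN14-2, 1.88 with LATS and 2.46 with control siRNA in CAKI-1 and 3.25 with PTPN14-1, 3 with PTPN14-2, 2.08 with LATS and 2.63 with control siRNA in HK2, with A704 lowest in every library.

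Of the inhibitors, all expressed in every line, NFKBIE was highest in A704 and NFKBIZ in HK2. NFKBIE was 20.8 with PTPN14-1, 15.8 with PTPN14-2, 17.8 with LATS and 16.8 with control siRNA in A704. It was 5.88 with PTPN14-1, 4.3 with PTPN14-2, 5.98 with LATS and 5.18 with control siRNA in CAKI-1 and 7.51 with PTPN14-1, 4.78 with PTPN14-2, 6.9 with LATS and 6.6 with control siRNA in HK2. The log2 difference of A704 minus CAKI-1 was 1.57 (SE 0.07, limma adjusted p = 2.09e-10). NFKBIZ, a nuclear IkB protein needed for secondary targets such as IL6, was 55 with PTPN14-1, 56.2 with PTPN14-2, 54.6 with LATS and 63 with control siRNA in A704. It was 52.5 with PTPN14-1, 64.4 with PTPN14-2, 56.9 with LATS and 64.9 with control siRNA in CAKI-1 and 95.2 with PTPN14-1, 92.3 with PTPN14-2, 90.1 with LATS and 99.7 with control siRNA in HK2. Its HK2 libraries lay above all 8 others. NFKBIA, the feedback inhibitor, was 41.6 with PTPN14-1, 23.3 with PTPN14-2, 29.6 with LATS and 27.3 with control siRNA in A704. CAKI-1 held 29 with PTPN14-1, 28.7 with PTPN14-2, 37.5 with LATS and 34.7 with control siRNA, and HK2 held 58.4 with PTPN14-1, 50.6 with PTPN14-2, 54.1 with LATS and 40.3 with control siRNA. HK2 lay above CAKI-1 without overlap. NFKBIB stayed between 4.1 and 6.94 FPKM in all 12 libraries and did not pass between any lines.

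ICAM1, the leukocyte adhesion receptor, was 158 with PTPN14-1, 85.5 with PTPN14-2, 112 with LATS and 89.6 with control siRNA in A704. It was 42.6 with PTPN14-1, 38.3 with PTPN14-2, 55 with LATS and 45.5 with control siRNA in CAKI-1 and 94.2 with PTPN14-1, 87.5 with PTPN14-2, 81 with LATS and 59.7 with control siRNA in HK2. CAKI-1 lay below both other lines in every library. C3, the central complement protein, was 199 with PTPN14-1, 113 with PTPN14-2, 195 with LATS and 102 with control siRNA in A704. It was 213 with PTPN14-1, 244 with PTPN14-2, 295 with LATS and 243 with control siRNA in CAKI-1 and 71.7 with PTPN14-1, 85.6 with PTPN14-2, 85.4 with LATS and 66.5 with control siRNA in HK2, so that the 3 lines did not overlap. CFB, the factor that forms the alternative complement convertase with C3, was 56.5 with PTPN14-1, 42.3 with PTPN14-2, 76.4 with LATS and 34.5 with control siRNA in A704. It was 23.5 with PTPN14-1, 33.1 with PTPN14-2, 32.2 with LATS and 36.9 with control siRNA in CAKI-1 and 0.45 with PTPN14-1, 0.67 with PTPN14-2, 0.89 with LATS and 0.68 with control siRNA in HK2. CFB was 4.94 (SE 0.19, limma adjusted p = 4.06e-10) higher in A704 than in HK2 on the log2 scale. It passed the filter through A704 and CAKI-1 alone, so that it had to differ from HK2. The higher level of CFB in A704 than in CAKI-1 (0.67 (SE 0.19)) was absent in the control libraries, where the log2 difference was -0.09. PTGS2, the inducible cyclooxygenase, was low throughout, at 0.97 with PTPN14-1, 1.71 with PTPN14-2, 1.48 with LATS and 1.94 with control siRNA in A704. It was 0.67 with PTPN14-1, 0.59 with PTPN14-2, 0.68 with LATS and 1.12 with control siRNA in CAKI-1 and 0.07 to 0.21 in HK2, the lowest line.

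The next comparisons set each siRNA against control siRNA in the same lines. With PTPN14-1, NFKB1, BIRC2 and CSF1 rose, each in all 3 lines (CSF1 in CAKI-1 by a ratio of only 1.02), and no member fell. These were 3 of 38 called members, where 5.87% of all genes were called, 2.39% higher and 3.47% lower. NFKB1 had a log2 change of 0.32 (SE 0.08, limma adjusted p = 0.0390), BIRC2 of 0.40 (SE 0.09, limma adjusted p = 0.0209) and CSF1 of 0.62 (SE 0.17, limma adjusted p = 0.0499), with 3 libraries against 3. Over all members 29 of 38 estimates were above 0, with a median of 0.20, while the median over all genes tested was 0.00. By role, 8 of 9 subunits and inhibitors, 8 of 9 survival and feedback genes, 6 of 9 chemokines, 5 of 7 cytokines and 2 of 4 adhesion, prostaglandin and complement genes had estimates above 0. These estimates pool the 3 lines, and the lines were not alike. In CAKI-1 most members, and most chemokines, were lower with PTPN14-1 than with control siRNA. The calls were not stable to the libraries used. The count was 0 without A704 PTPN14-1, without A704 control or without HK2 control, and 7 without CAKI-1 PTPN14-1. CSF1 passed in 2 of 12 fits that each left out 1 library, NFKB1 in 4 and BIRC2 in 7.

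Among members that did not pass, the estimates with PTPN14-1 were 0.93 (SE 0.39) for CXCL10, 0.68 (SE 0.27) for IL6, 0.63 (SE 0.36) for CCL5, 0.54 (SE 0.17) for BIRC3 and 0.53 (SE 0.17) for IL32. BIRC3, IL32 and CXCL10 were higher in all 3 lines, CXCL10 by only a few reads outside A704, IL6 was higher in A704 and HK2 and lower in CAKI-1, and CCL5 was higher in A704 alone. The lowest estimates were -0.32 (SE 0.11) for PTGS2, -0.28 (SE 0.14) for IL1B and -0.24 (SE 0.22) for CXCL6. At an unadjusted p under 0.05 there were 15 members (13 higher, 2 lower), where 22.8% of all genes passed.

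With PTPN14-2 no member was called by limma, where 1.35% of all genes were called and 0.904% were called lower. At an unadjusted p under 0.05 there were 9 members, 2 higher (BIRC3 and IL32) and 7 lower (NFKBIE, TNFAIP3, TNFAIP8, TRAF1, CXCL3, LIF and CSF2), where 15% of all genes passed. The smallest adjusted p was that of LIF, whose log2 change was -0.33 (SE 0.08, limma adjusted p = 0.0844), lower in 3 of 3 lines. CSF2 had the lowest estimate, -1.08 (SE 0.41, limma adjusted p = 0.253), also lower in 3 of 3 lines. The median of the members was -0.10 and 14 of 38 estimates were above 0. The comparisons of PTPN14-1, PTPN14-2 and LATS with control share the 3 control libraries.

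With LATS siRNA no member was called either, where 0.122% of all genes were. At an unadjusted p under 0.05 limma gave 6 members, IL32, CSF1 and C3 higher and NFKBIZ, CXCL3 and PTGS2 lower, where 11.2% of all genes passed. IL32 had the smallest adjusted p, with a log2 change of 0.56 (SE 0.17, limma adjusted p = 0.283). C3 was at 0.52 (SE 0.19) and CSF1 at 0.46 (SE 0.17), each higher in 3 of 3 lines. The members' median was 0.02, with 21 of 38 estimates above 0.

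Whether a change differed between lines was tested with an interaction of line and target. No member passed it in limma, nor did any of the 12276 genes (0%). At an unadjusted p under 0.05 only CXCL1 passed among the members, where 0.969% of all genes did, and its adjusted p was 1. This fit has 3 residual degrees of freedom, all from the paired PTPN14 libraries, which it treats as 1 target. Its spread is thus the difference between PTPN14-1 and PTPN14-2, between which 11.7% of all genes were called. The absence of calls therefore says little, and the values by line that follow are descriptions.

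**Figure D2:**
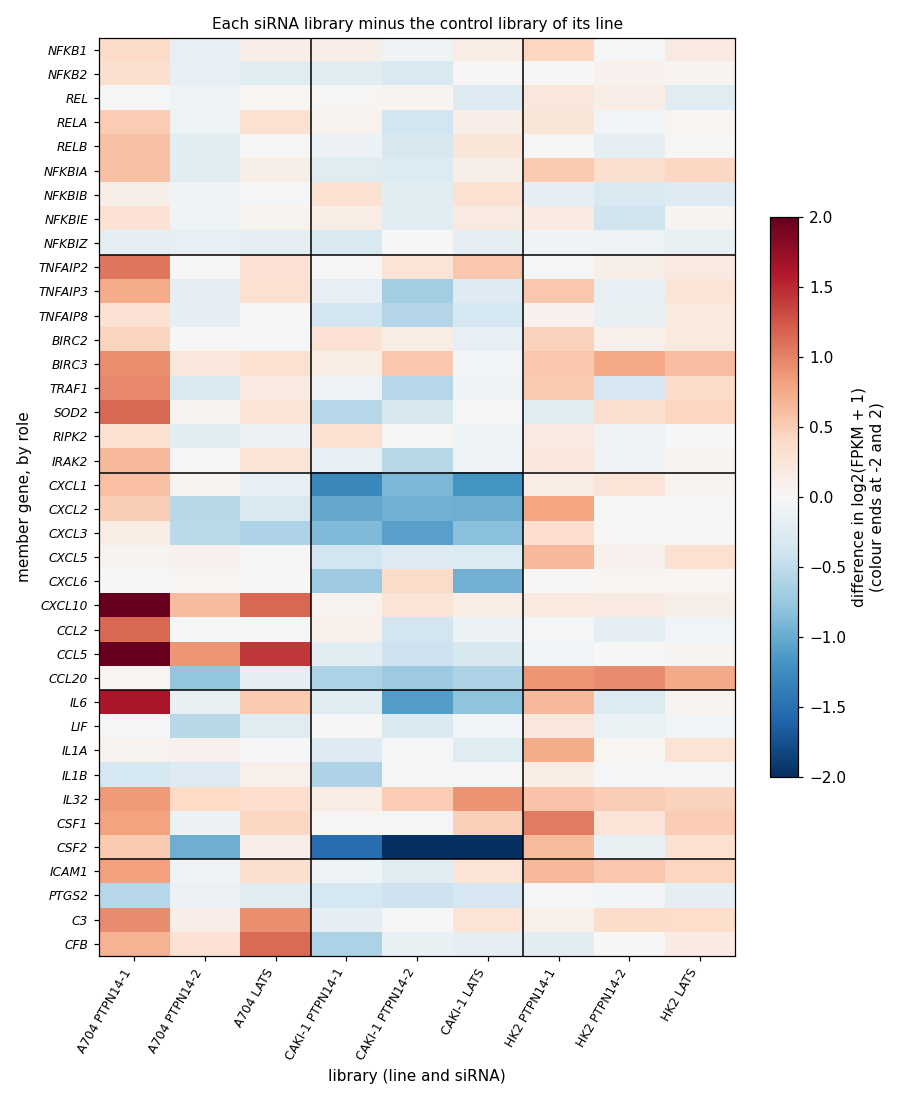
Difference in log2(FPKM + 1) of each siRNA library from the control library of its line, in colour, for the 38 members in rows by role and the 9 library pairs in columns by line. Most rows are higher in A704 with PTPN14-1, and CXCL1, CXCL2, CXCL3, CCL20 and CSF2 are lower with all 3 siRNAs in CAKI-1.

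In A704 many members were higher with PTPN14-1. In that library 17 members were at least 1.5-fold above the control library on the FPKM + 1 scale and none as far below, where 2.57% of all genes were higher and 1.52% lower. CXCL10 was at 53.2 FPKM with PTPN14-1 and 8.37 with control siRNA, a ratio of 6.35. The ratio was 5.27 for CCL5, 3.6 for IL6, 2.27 for TRAF1, 2.25 for SOD2 and 2.24 for CCL2. TNFAIP2 had a ratio of 2.15, C3 of 1.94, BIRC3 of 1.9, IL32 of 1.82, TNFAIP3 of 1.81 and CSF1 of 1.78. ICAM1 (1.77), IRAK2 (1.72), CFB (1.64), CXCL1 (1.58) and NFKBIA (1.52) complete the 17. The A704 library with PTPN14-1 was the highest of its line for 29 of 38 members, where that held for 30.4% of all genes. The exceptions among the more abundant members were LIF and NFKBIZ, highest with control siRNA, and CFB, highest with LATS siRNA.

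The other A704 libraries lay closer to control. With PTPN14-2, CXCL10 (1.62) and CCL5 (2.03) were at least 1.5-fold higher, where 0.407% of all genes were, and CCL20 (0.244) and CSF2 (0.425) were as far lower (0.587%). With LATS siRNA, CXCL10 (2.35), CCL5 (3.04), C3 (1.91) and CFB (2.21) were higher (1.06%) and CXCL3 (0.472) lower (0.261%). CXCL10 and CCL5 were thus above control with all 3 siRNAs, which share 1 control library. The summed FPKM of the 12 interferon response genes in A704 was 2062 with PTPN14-1, 864 with PTPN14-2, 1497 with LATS and 859 with control siRNA, and their part in these results was not tested. The A704 control was also the 1 library with an RNA integrity number below 10, at 9.6, and that part was not tested either.

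In CAKI-1 several members were at least 1.5-fold lower with every siRNA, among them 4 of the 9 chemokines. CXCL1, CXCL2, CXCL3, CCL20 and CSF2 were lower than control by at least 1.5-fold with each of the 3 siRNAs, in comparisons that share the control library. CXCL1 stood at 0.405 of its control level with PTPN14-1, 0.534 with PTPN14-2 and 0.434 with LATS siRNA. CXCL2 had ratios of 0.486 with PTPN14-1, 0.509 with PTPN14-2 and 0.504 with LATS siRNA, and its 3 siRNA libraries lay between 52.9 and 55.5 FPKM. CXCL3 was at 0.515 of control with PTPN14-1, 0.436 with PTPN14-2 and 0.532 with LATS siRNA. CSF2 had the lowest ratios, 0.309 with PTPN14-1, 0.186 with PTPN14-2 and 0.186 with LATS siRNA. IL6 was lower by that margin with PTPN14-2 (0.448) and LATS siRNA (0.564), and CXCL6 with PTPN14-1 (0.586) and LATS siRNA (0.486). IL1B (0.44) and CFB (0.638) were lower with PTPN14-1 alone, and TNFAIP3 (0.57) with PTPN14-2 alone. CXCL5 and CCL5 were also lower with all 3 siRNAs, by less than 1.5-fold on the FPKM + 1 scale. CXCL5 was at 1.12 to 1.32 against 1.76 FPKM with control siRNA, and CCL5 at 1.58 to 1.93 against 2.43. The remaining chemokines were not lower throughout. CXCL6 was at 1.32 of control with PTPN14-2 and CCL2 at 1.12 with PTPN14-1. CXCL10, at most 0.24 FPKM, was above control with all 3 siRNAs. In all, 8 members were lower with PTPN14-1 (1.69% of all genes), 7 with PTPN14-2 (1.33%) and 7 with LATS siRNA (0.684%). None were higher with PTPN14-1 (0.741%) or PTPN14-2 (0.635%), and with LATS siRNA only IL32 was (0.806%), at 1.9 of control. The CAKI-1 control was the highest of its line for 17 of 38 members, where 15.2% of all genes were highest there, so that a single library carries this pattern.

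**Figure D3:**
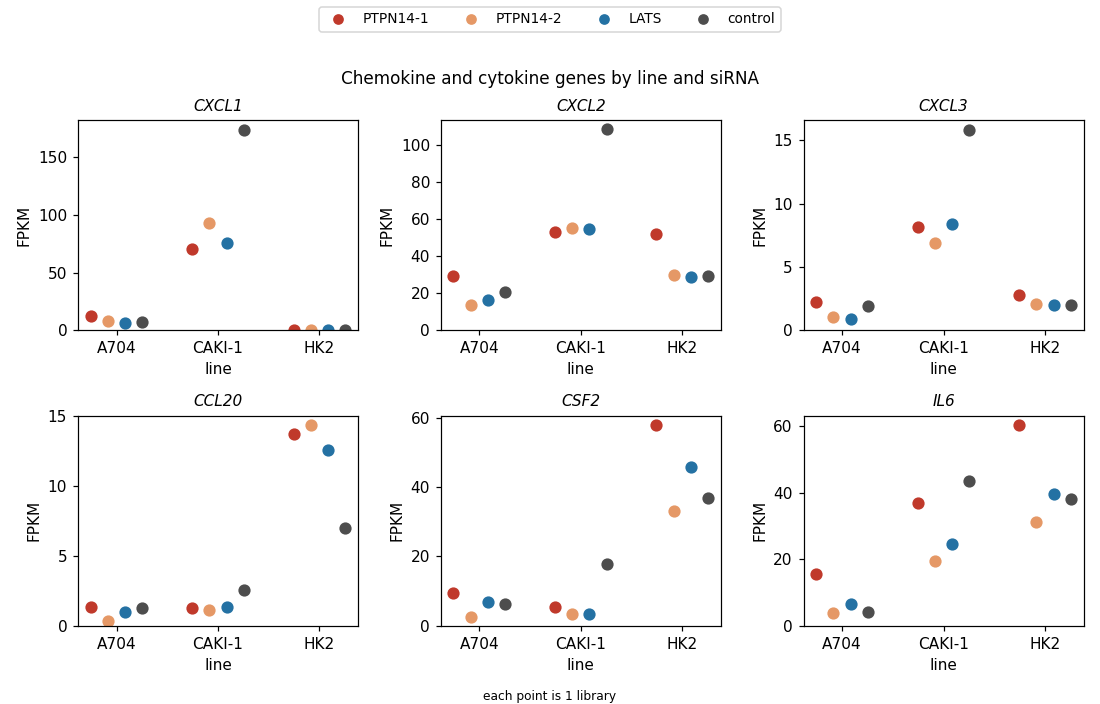
FPKM of CXCL1, CXCL2, CXCL3, CCL20, CSF2 and IL6 in each of the 12 libraries, 1 point per library, by line and siRNA. The CAKI-1 control lies above the other CAKI-1 libraries in each panel, from 2.54 FPKM for CCL20 to 174 for CXCL1, while in HK2 the PTPN14-1 library is highest for CXCL2, CXCL3, CSF2 and IL6.

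In HK2, 8 members were at least 1.5-fold higher with PTPN14-1 than with control siRNA and none as far lower, where 1.44% of all genes were higher and 2.97% lower. They were CXCL2 (1.76), CXCL5 (1.64), CCL20 (1.97), IL6 (1.58), IL1A (4.77, at 1.05 against 0.22 FPKM), CSF1 (2.14), CSF2 (1.57) and ICAM1 (1.58). BIRC3 and CCL20 were higher by that margin with PTPN14-2 (1.73 and 2.05; background 0.652%) and with LATS siRNA (1.55 and 1.79; 0.22%). No member was as far lower with PTPN14-2 (1.14%) or LATS siRNA (0.521%). CCL20 was thus about the same with all 3 siRNAs, at 12.6 to 14.4 FPKM, and lowest with control siRNA at 7.01. The HK2 library with PTPN14-1 was the highest of its line for 22 of 38 members, where that held for 32% of all genes, and the CAKI-1 library with PTPN14-1 for 4 (24.8%).

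**Figure D4:**
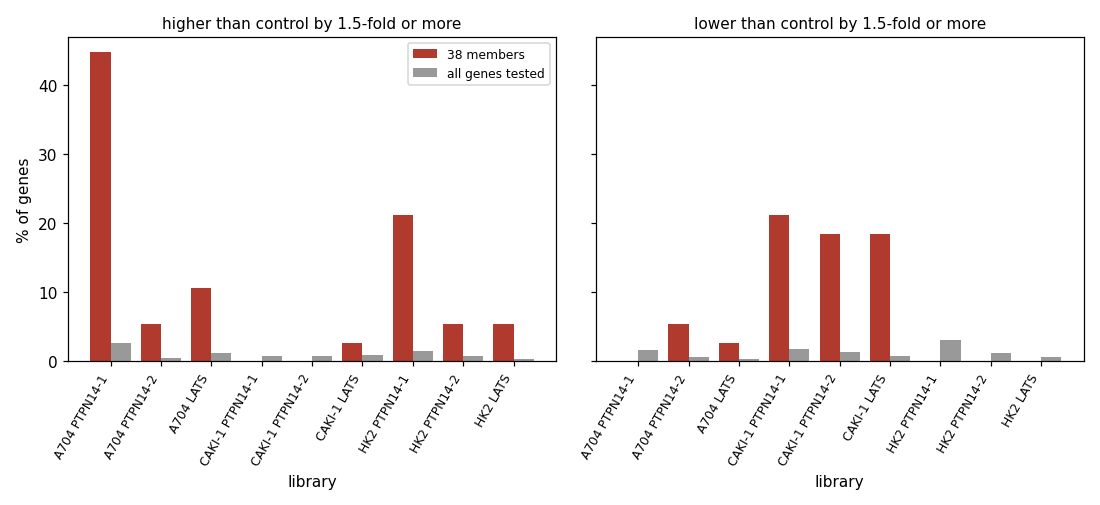
Percent of the 38 members, beside percent of all 12276 genes tested, at least 1.5-fold higher or lower than the control library of the same line on the FPKM + 1 scale, in 9 library pairs. The bar for higher members stands tallest in A704 with PTPN14-1, at 44.7% against 2.57% of all genes, and the lower members appear mainly in CAKI-1.

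The PTPN14 siRNAs were then compared with each other, since both were aimed at 1 gene and share no control library in this comparison. Of the 38 members, 11 were called higher with PTPN14-1 than with PTPN14-2, none lower, and 27 did not pass, where 11.7% of all genes were called, 5.52% higher and 6.18% lower. They were NFKB1, RELA and NFKBIE among the subunits and inhibitors (3 of 9), TNFAIP3, BIRC2, TRAF1, RIPK2 and IRAK2 among the survival and feedback genes (5 of 9), and IL6, LIF and CSF1 among the cytokines (3 of 7). None of the 9 chemokines and none of the 4 adhesion, prostaglandin and complement genes passed. Each of the 11 was higher in 3 of 3 lines. The members' median difference was 0.33, against 0.01 over all genes tested, and 33 of 38 estimates were above 0.

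TNFAIP3 was at 8.34 FPKM with PTPN14-1 and 3.89 with PTPN14-2 in A704, at 6.94 and 4.51 in CAKI-1 and at 8.31 and 4.73 in HK2. Its log2 difference was 0.72 (SE 0.13, limma adjusted p = 0.00423), and the 3 libraries with PTPN14-1 lay above the 3 with PTPN14-2 without overlap. TRAF1 was at 6.38 with PTPN14-1 and 2.07 with PTPN14-2 in A704, 1.86 and 1.06 in CAKI-1 and 7.43 and 3.61 in HK2, a log2 difference of 0.87 (SE 0.16, limma adjusted p = 0.00398). IL6 had the largest difference, 1.20 (SE 0.27, limma adjusted p = 0.0182), and stood at 15.4 FPKM with PTPN14-1 and 3.79 with PTPN14-2 in A704, 37 and 19.6 in CAKI-1 and 60.4 and 31.4 in HK2. All 3 genes were higher with PTPN14-1 in every line, IL6 by a ratio of 4.07 in A704, of 1.89 in CAKI-1 and of 1.93 in HK2.

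The subunit and inhibitor differences were smaller. RELA was higher with PTPN14-1 by 0.45 (SE 0.10, limma adjusted p = 0.0111), NFKBIE by 0.44 (SE 0.08, limma adjusted p = 0.00490) and NFKB1 by 0.39 (SE 0.08, limma adjusted p = 0.00826) on the log2 scale. LIF was at 0.40 (SE 0.08, limma adjusted p = 0.00994), RIPK2 at 0.35 (SE 0.08, limma adjusted p = 0.0139), IRAK2 at 0.46 (SE 0.12, limma adjusted p = 0.0271), BIRC2 at 0.32 (SE 0.09, limma adjusted p = 0.0329) and CSF1 at 0.58 (SE 0.17, limma adjusted p = 0.0416). CSF2 and CXCL2 had large estimates that did not pass, 0.96 (SE 0.41, limma adjusted p = 0.160) and 0.59 (SE 0.27, limma adjusted p = 0.185), and the lowest estimate was that of CXCL6 (-0.40 (SE 0.22)), lower in 3 of 3 lines but by about 1 read in A704 and HK2. BIRC3 did not separate the siRNAs (0.02 (SE 0.17)): it was higher with PTPN14-1 in A704 and lower in both other lines. PTPN14-2 gave the lowest library of its line for 21 of 38 members in A704 (25.2% of all genes), 21 in CAKI-1 (28.5%) and 13 in HK2 (22.9%).

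**Figure D5:**
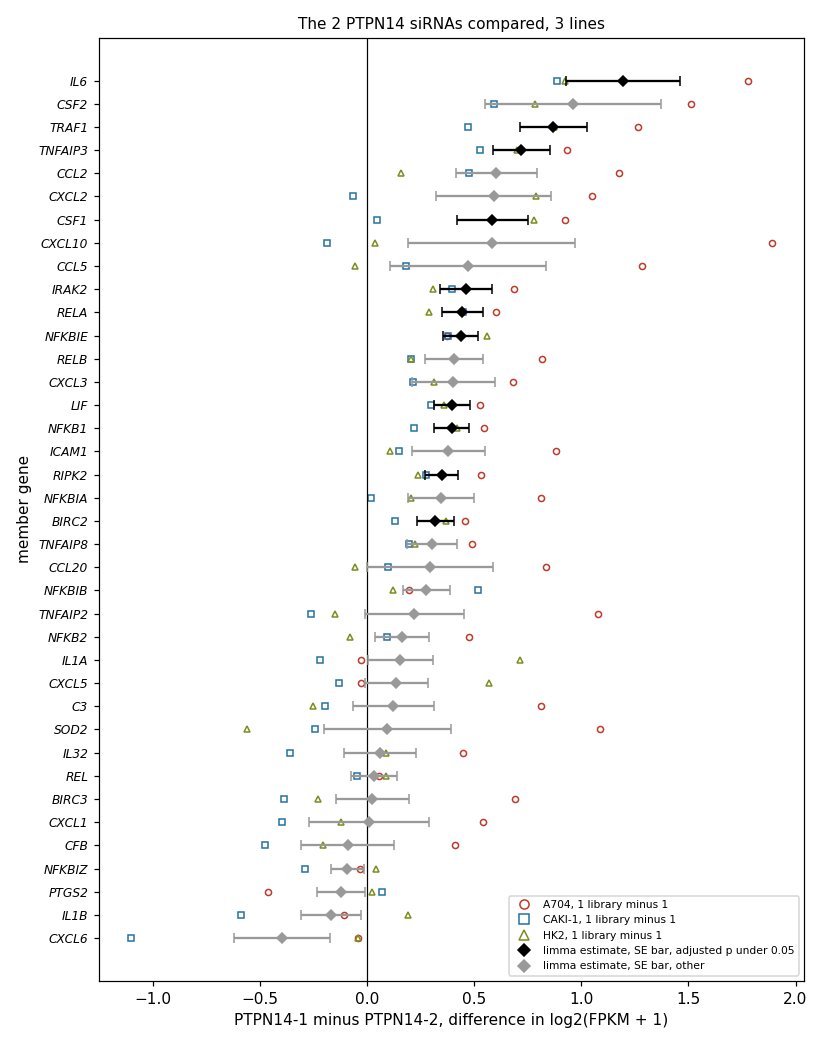
PTPN14-1 minus PTPN14-2 in log2(FPKM + 1) for each of the 38 members, as the fitted difference with its SE across 3 lines and, as points, the difference in each line. The 11 called members lie to the right of 0 in all lines, from 0.32 for BIRC2 to 1.20 for IL6.

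Among these 11, NFKB1, NFKBIE, TNFAIP3 and TRAF1 passed in each of the 12 fits that left out 1 library. LIF passed in 11 of them, and IL6, RELA and RIPK2 in 10 (limma adjusted p up to 0.0918). BIRC2 and IRAK2 passed in 8 (limma adjusted p up to 0.135 and 0.127) and CSF1 in 4 (up to 0.161). None of the 11 passed without line HK2, where TRAF1 had an estimate of 0.87 (limma adjusted p = 0.0708), nor in the fit without the cell line block, and 3 did without line A704 (TRAF1, NFKBIE and IL6). The count was 4 without A704 PTPN14-2 and 15 without CAKI-1 PTPN14-1. The reagents also differed in their target: the PTPN14-1 minus PTPN14-2 difference was -0.44 for PTPN14 itself (SE 0.11, limma adjusted p = 0.0213), and 0.40 for LATS2 (SE 0.09, limma adjusted p = 0.0112). The part of either in the members' difference was not tested.

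Other genes of the pathway, in lists drawn up beside the members, were measured in the same fits, in which 5.87% of all genes were called with PTPN14-1 (2.39% higher and 3.47% lower), so that most of the following counts are about what that share gives. Of 20 receptors and adaptors tested, 1 fell and none rose with PTPN14-1: TNFRSF1A, the main receptor of tumour necrosis factor, at -0.62 (SE 0.12, limma adjusted p = 0.00905). It was 45.3 with PTPN14-1, 53.9 with PTPN14-2, 64.7 with LATS and 61.4 with control siRNA FPKM in A704. CAKI-1 held 33.1 with PTPN14-1, 58.2 with PTPN14-2, 69 with LATS and 54.9 with control siRNA, and HK2 held 25.8 with PTPN14-1, 50.4 with PTPN14-2, 44.7 with LATS and 43.1 with control siRNA. TNFRSF1A was lowest with PTPN14-1 in all 3 lines. Most members had estimates above 0 over the 3 lines together, but in CAKI-1 most of them were below control, as TNFRSF1A was. Of 23 kinases and ubiquitin enzymes 1 rose, BTRC (0.35), which encodes the ligase subunit that marks IkB proteins for degradation. Of 29 other regulators and targets 2 rose, the cytokine gene IL18 (0.38) and the survival gene BCL2L1 (0.37). Of 8 cytokine receptor genes, OSMR fell (-0.55) and IL6ST, the gp130 chain used by IL6 and LIF, rose (0.34). None of the 12 interferon response genes passed.

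With PTPN14-2 the only call in these lists was IER3, a stress-induced NF-kB target, at -0.63 (SE 0.11, limma adjusted p = 0.0152); it stands on 6 lines of the table. LATS siRNA gave none. Between the PTPN14 siRNAs, where 11.7% of all genes were called, IL1RAP (0.70), RIPK1 (0.37) and CD40 (0.51) were higher with PTPN14-1 and TNFRSF1A was lower (-0.66) among the receptors and adaptors. TBK1 (0.26) was the 1 call in the list of kinases and ubiquitin enzymes. IER3 (0.64), PLAU (0.65), IRF1 (0.68) and IL18 (0.26) were the 4 other regulators and targets, and all of these, with TBK1, were higher. OSMR (-0.67) and IL1R2 (-0.47) were lower among the cytokine receptors. IFIT1 (1.03), ISG15 (1.13), IFIT3 (0.93) and DDX58 (0.80) were higher among the 12 interferon response genes. Immune and endothelial or fibroblast markers gave no call in any siRNA comparison.

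Of the 8 cytokine receptor genes tested, 7 were called between A704 and CAKI-1, where 81.1% of all genes were, a share near that background. CSF2RA, a receptor chain for CSF2, was at most 0.11 FPKM in A704, 9.26 with PTPN14-1, 7.72 with PTPN14-2, 7.79 with LATS and 7.19 with control siRNA in CAKI-1 and at most 0.06 in HK2, the line with the most CSF2. CCR6, the receptor of CCL20, was 0.96 with PTPN14-1, 2.76 with PTPN14-2, 2.1 with LATS and 2.57 with control siRNA in A704 and at most 0.05 elsewhere, and HK2 held the most CCL20. CXCR2, the receptor of the neutrophil chemokines, was listed at 0 in all 12 libraries; it was named after its values were seen. TLR3, a receptor of double-stranded RNA, was 43.9 with PTPN14-1, 46.5 with PTPN14-2, 48.6 with LATS and 42.3 with control siRNA in A704, 2.49 with PTPN14-1, 3.35 with PTPN14-2, 2.84 with LATS and 2.76 with control siRNA in CAKI-1 and 0.66 with PTPN14-1, 1.16 with PTPN14-2, 1.24 with LATS and 0.82 with control siRNA in HK2.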

How the data were processed

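PolyA RNA of 12 libraries was sequenced from a kit that marks strand, per the labels' protocols. The submitters' processing notes name STAR 2.4.0g1 and GRCh38.p1. For the counter, its annotation, strand setting and library scaling, the sources used here give nothing. The authors deposited 1 table of FPKM with 2 decimals. Depth was estimated as the read total at which low values of single-exon genes come out as whole reads given gene length (78.6 to 94.9% of them did, allowing for the rounding; other totals gave medians of 11.8 to 16.7%).

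Values were tested here as log2(FPKM + 1) with limma 3.58.1 in R 4.3.3 (mean-variance trend, robust moderation with statmod 1.5.0), on 12276 genes (3 or more libraries above FPKM 1), adjusted by Benjamini-Hochberg over all of them at 0.05. The planned count test gave way to its stated fallback for normalised values. The model held cell line and the 4 reagents, with 6 residual degrees of freedom; libraries of 1 line pair across reagents as the same cells, and the first components of the values (57 and 38.1% of variance) separated the lines. The interaction model held 9 groups of line and target. Pairs of single libraries were compared by fold alone. The fits were tested on simulated data. The members, lists and tests were chosen with earlier results of these data known, and the lists support no statement of direction. The naming rule took every member that passed a test or exceeded FPKM 10 in any library, and from other lists up to 4 called genes per list and comparison. Alternatives were other pseudocounts, filters, scalings and moderation, models without reagent or line, and fits without each library or line. Promoters came from RefSeq on GRCh38.p14 and gene positions from GENCODE 29 on GRCh38.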

Additional observations from a re-analysis of the deposited data

Results flagged for a closer look

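The 4 libraries of a line received different siRNAs and are not repeats of 1 treatment. Of 101 sets of 4 libraries (1 member in 1 line) 9 had a sample whose gap to the nearest other exceeded 0.829 of the range (8.91%), where chance gives about 1 in 20. In A704 the PTPN14-1 library stood apart for BIRC2, at 74.14 FPKM against 52.56 to 54.26 in the other libraries, and for CCL2, at 171.43 against 75.4 to 77.31. In CAKI-1 the control library stood apart for CXCL2, which was 52.93 to 55.45 with the other siRNAs and 108.93 with control siRNA, and for CCL20, which was 1.14 to 1.32 with the other siRNAs and 2.54 with control siRNA. IL1B was low in CAKI-1 with PTPN14-1, at 0.73 against 1.6 to 1.66, and CSF1 high there with LATS siRNA, at 45.25 against 31.81 to 32.93. In HK2 the PTPN14-1 library stood apart for CXCL2, at 51.99 against 28.78 to 29.66, and for CXCL3, at 2.79 against 1.96 to 2.05, and RELB was low with PTPN14-2, at 9.07 against 10.38 to 10.61. CXCL2 was thus separated from the rest by the control library in CAKI-1 and by the PTPN14-1 library in HK2.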

How the results depend on the processing

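The counts of called members between lines were 29 to 33 for A704 minus HK2, 29 to 31 for CAKI-1 minus HK2 and 29 to 33 for A704 minus CAKI-1 when each library was left out in turn, and with a log2 difference of at least 1 they were 15 to 17, 14 to 17 and 18 to 19. PTPN14-1 minus control gave 0 to 7 and PTPN14-1 minus PTPN14-2 gave 4 to 15, while PTPN14-2 minus control, LATS minus control and the interaction gave 0 in every such fit. With FPKM above 1 in all 12 libraries, which left 26 members, there were 18 calls for CAKI-1 minus HK2, and with a log2 difference of at least 1 there were 8 for A704 minus HK2, 6 for CAKI-1 minus HK2 and 11 for A704 minus CAKI-1; fewer members were tested. PTPN14-1 minus control gave 0 calls with no filter on low values, 0 without the replicate block of cell line, 0 without line A704 and 0 without line HK2. PTPN14-1 minus PTPN14-2 gave 0 without the block, 0 without line HK2 and 3 without line A704. Leaving out a line leaves 2 libraries against 2, and leaving out the block puts the difference between lines into the spread; other causes were not tested. The PTPN14-1 minus PTPN14-2 difference of SOD2, 0.094 in all libraries, lay between -0.41 (without A704 PTPN14-1, limma adjusted p = 0.0455) and 0.356 with 1 library left out. CFB reversed in the control libraries alone, at -0.094 for A704 minus CAKI-1. With a pseudocount of 0.1, CXCL10 passed in PTPN14-1 minus control (1.47, limma adjusted p = 0.0434, against 0.189 with a pseudocount of 1). CXCL10 passed the filter through A704 alone and was at most 0.24 FPKM in CAKI-1 and HK2. The smaller pseudocount enlarges changes of a few reads there. Depth limits members near 0.03 FPKM, about 1 read, and 1 library per reagent and line leaves differences within a line without a test.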
